A study of Brassica rapa with 23 samples.

Results

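A set of 5 cytochrome P450 genes of the indolic glucosinolate pathway was followed in Chinese cabbage leaf discs treated with chitin or flg22. They were chosen by gene identifier, as the P450 steps that lead from tryptophan to indolic glucosinolates, and they make up 5 of the 41020 genes in the files. The list holds 3 copies of CYP79B2 (Bra011821, Bra010644 and Bra017871), a copy of CYP79B3 (Bra030246) and a copy of CYP83B1 (Bra034941). The study names Bra030246 as CYP79B3. The names of the other 4 copies came with the list and could not be checked against an annotation here.

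Indolic glucosinolates are sulfur-containing defense compounds of the Brassicaceae that are made from tryptophan. In Arabidopsis, CYP79B2 and CYP79B3 catalyze the same step, the conversion of tryptophan to indole-3-acetaldoxime, and CYP83B1 oxidizes the aldoxime to the intermediate to which sulfur is added. The aldoxime is also a precursor of the phytoalexin camalexin and of auxin, so that CYP83B1 directs it toward glucosinolates.

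The study measured how leaves respond to unrelated microbe-associated molecular patterns (MAMPs). Discs from the first true leaf of wild-type Norang plants, a *Brassica rapa* ssp. *pekinensis* cultivar grown on soil for 17 days under short days, were treated with water, with chitin (a polymer of fungal cell walls, 100 µg per ml) or with flg22 (a peptide of bacterial flagellin, 100 nM). Treatment lasted 30 or 180 min, and messenger RNA was sequenced in 23 libraries. Chitin and flg22 had 3 libraries at each time and water had 5 libraries at 30 min and 6 at 180 min. The study had separate water controls for chitin and for flg22, which shared a library at 30 min. The library labels do not mark these controls, and water was pooled within each time for both MAMPs. The study also lists mapped reads for each control. These were not used in any test here, and are only set beside the aligned sequence of some water libraries below. Each change from water is therefore measured in part against controls of the other MAMP, and changes against the matched controls alone were not tested. Each library came from several pooled discs of whole leaf tissue, so that fewer cells expressing a gene and less RNA per cell cannot be told apart.

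Levels are given as FPKM, fragments scaled to transcript length and to the mapped fragments of the library, as the authors deposited them. Because FPKM is scaled to gene length, levels of the copies can be set side by side, although reads that match several near-identical copies may have been divided among them in a way that is not given in the sources used here. The libraries held 4.09 to 5.64 gigabases of aligned sequence. BraNHL10 (Bra017272), the early MAMP marker of the study, was at 79.8 to 1094 FPKM in the 12 treated libraries and at 3.02 to 17.5 FPKM in the 11 water libraries, so that treated and water libraries did not overlap. Fold changes are on the log2 scale of FPKM + 1, which understates changes of low genes. They come from limma with 24384 genes tested, and a call is a Benjamini-Hochberg adjusted p under 0.05 over all of these genes. The chitin and flg22 comparisons of a time share their water libraries and are not independent of each other.

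The copies differed widely in level. CYP83B1 Bra034941 was the most abundant in each of the 23 libraries, CYP79B2 Bra011821 was second in each, and the ranges of this pair did not overlap in any condition. In water, CYP79B3 Bra030246 was the next in level, above both remaining CYP79B2 copies without overlap. Bra010644 and Bra017871 were the lowest copies, with overlapping ranges in water at both times. Within libraries Bra017871 exceeded Bra010644 in 5 of 5 water libraries at 30 min, whereas at 180 min Bra010644 was the higher in 4 of 6. Bra011821 supplied between 83.4% and 97.3% of the summed FPKM of the CYP79B2 copies in a library, with a median of 94.4% (n = 23).

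**Figure D1:**
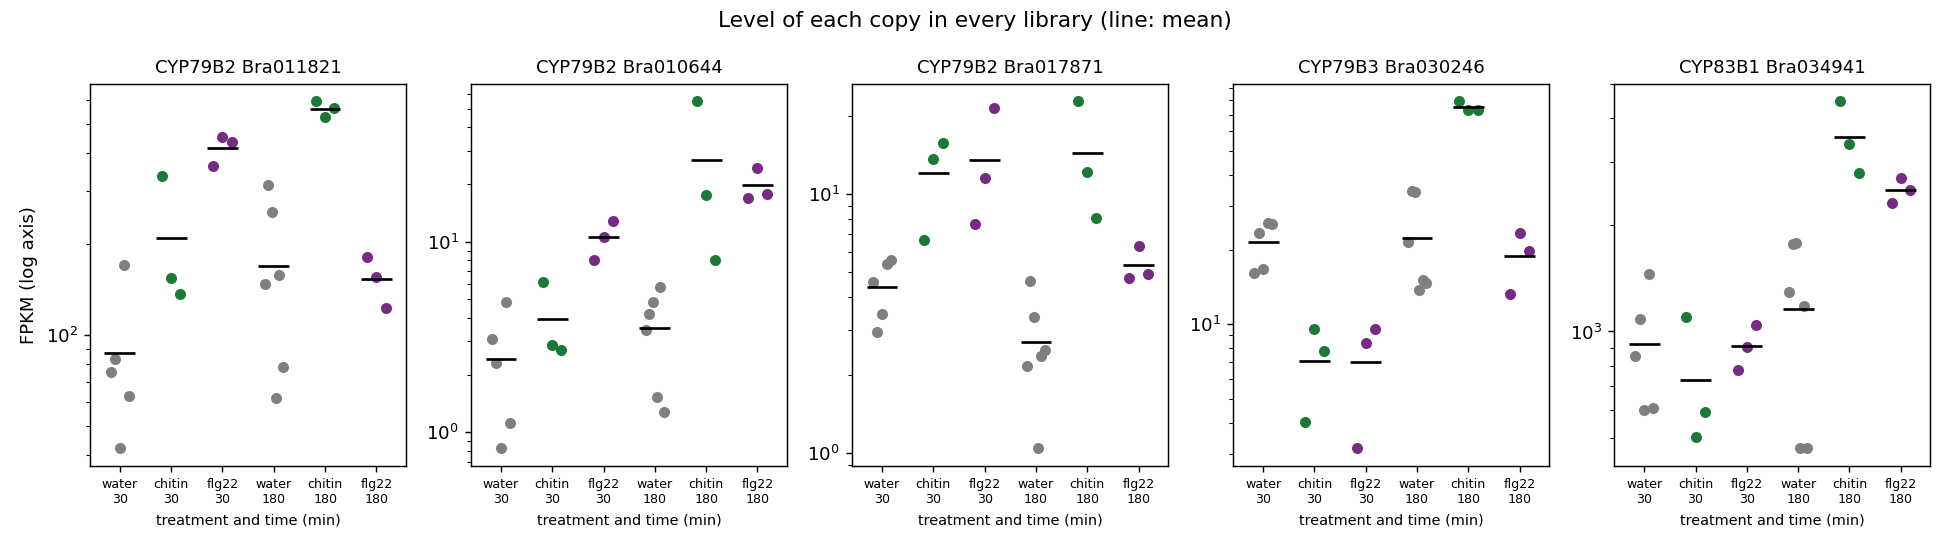
Level of each of the 5 copies in every library, in FPKM on a log axis with its own range for each copy, by treatment and time in min. Each point is 1 library and each line the mean of a condition; all 5 copies were highest on average in the chitin-treated discs at 180 min, where Bra034941 reached 2793 to 4474 FPKM, and Bra030246 was lowest in both treatments at 30 min.

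CYP79B2 Bra011821, the main copy (chromosome A01, 374137 to 375874, plus strand), was upregulated with both MAMPs at 30 min and with chitin at 180 min. At 30 min it was at 75.3, 42.1, 83.5, 170.9 and 62.5 FPKM in water, at 335, 155 and 137 FPKM with chitin and at 363, 453 and 437 FPKM with flg22. All 3 flg22 libraries lay above all water libraries, whereas 1 of the 3 chitin libraries did. The other chitin libraries lay below the water library at 170.9 FPKM and above every other water library. By its aligned sequence, ranked beside the mapped reads that the study lists, the water library at 170.9 FPKM would be a flg22 control. The chitin change against chitin controls alone was not tested. It was upregulated with flg22 (log2 fold change 2.40, SE 0.45, adjusted p = 0.00011, limma) and with chitin (1.30, SE 0.45, adjusted p = 0.0165). With the replicate number as a block the chitin change was 1.24 (adjusted p = 0.0212). Without chitin replicate 1 it was 0.90 with an adjusted p of 0.125, and that same library had the highest BraNHL10 level of the chitin-treated discs at 30 min (697 FPKM, against 383 and 294 in the other libraries).

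At 180 min Bra011821 was at 61.7 to 314 FPKM in water, with a median of 152.7 (n = 6), at 597, 526 and 564 FPKM with chitin and at 181, 155 and 123 FPKM with flg22. The chitin libraries lay above every water library, and the flg22 libraries lay within the water range. The gene was upregulated with chitin (log2 fold change 1.95, SE 0.43, adjusted p = 0.000769, limma). With flg22 the change was 0.06, with a 95% interval from −0.84 to 0.97 (adjusted p = 0.921). The chitin-treated discs exceeded the flg22-treated discs at 180 min by 1.89 (SE 0.50, adjusted p = 0.0191), a call lost in 3 of the 6 fits that left out a library of either treatment (without chitin replicate 1 or 2 or flg22 replicate 3, adjusted p = 0.0566, 0.0586 and 0.0864).

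CYP79B2 Bra010644 (A08, 14973444 to 14975600, minus strand) was a low copy in water that rose with flg22 at both times. Its 30 min levels were 3.08, 0.83, 2.32, 4.82 and 1.12 FPKM in water, 6.19, 2.87 and 2.72 FPKM with chitin and 8.04, 10.7 and 12.9 FPKM with flg22. Only the flg22 libraries were separated from water, with a log2 fold change of 1.86 (SE 0.47, adjusted p = 0.00196, limma). The chitin change of 0.58 did not pass the test (95% interval −0.41 to 1.57, adjusted p = 0.285). The depth behind this copy was small, with a coverage per base as low as 4.18 in water at 30 min.

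At 180 min Bra010644 was at 1.28 to 5.83 FPKM in water (median 3.82, n = 6). It reached 54.8, 17.5 and 8.00 FPKM with chitin and 16.9, 24.5 and 17.9 FPKM with flg22, so that all treated libraries exceeded all water libraries. The changes were 2.33 with chitin (SE 0.46, adjusted p = 0.000237, limma) and 2.30 with flg22 (SE 0.46, adjusted p = 0.0005). The size of the chitin change depended on single libraries, with 1.63 without chitin replicate 1 and 2.95 without replicate 3 (adjusted p = 0.00538 and 3.52e-05). The 3 chitin libraries were spread more widely than the flg22 libraries (26.8 ± 24.7 against 19.8 ± 4.13 FPKM, SD, n = 3). Set directly against the flg22-treated discs, without the water controls, the chitin-treated discs differed by 0.04, with a 95% interval from −1.07 to 1.14.

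CYP79B2 Bra017871 (A03, 31203169 to 31205210, minus strand) was the only CYP79B2 copy whose 3 chitin libraries all exceeded the water libraries at 30 min. Levels were 4.58, 3.44, 2.94, 5.36 and 5.58 FPKM in water, 6.65, 13.7 and 15.8 FPKM with chitin and 7.67, 11.6 and 21.4 FPKM with flg22. Changes were 1.23 with chitin (SE 0.34, adjusted p = 0.00446, limma) and 1.35 with flg22 (SE 0.34, adjusted p = 0.00191). At 180 min the water level was 1.05 to 4.62 FPKM with a median of 2.44 (n = 6).

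The chitin-treated discs at 180 min held Bra017871 at 22.9, 12.2 and 8.13 FPKM and the flg22-treated discs at 4.76, 6.33 and 4.91 FPKM. All 6 values lay above the water range, the flg22 values only just. The chitin change was 2.02 (SE 0.33, adjusted p = 3.86e-05, limma). The flg22 change of 0.84 (SE 0.33, adjusted p = 0.048) passed narrowly and was lost in 13 of 19 alternatives, among them the fit with the replicate number as a block (adjusted p = 0.0545). Chitin against flg22 at 180 min missed the threshold (1.18, SE 0.38, adjusted p = 0.0519).

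CYP79B3 Bra030246 (A04, 10022729 to 10024935, plus strand) fell with both MAMPs at 30 min. In water it was at 16.0, 16.7, 23.4, 25.5 and 25.4 FPKM, with chitin at 4.02, 9.53 and 7.81 FPKM and with flg22 at 3.15, 8.42 and 9.59 FPKM. Every treated library was below every water library. It was downregulated by both MAMPs (chitin −1.50, SE 0.34, adjusted p = 0.000777; flg22 −1.56, SE 0.34, adjusted p = 0.000454, limma). The median change of all tested genes was −0.46 with chitin and −0.47 with flg22 at 30 min, and after median-ratio scaling, which brought those medians to −0.04 and −0.05, the copy was still downregulated, by −1.05 and −1.10 (adjusted p = 0.0164 and 0.00937).

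At 180 min Bra030246 was at 13.7 to 34.6 FPKM in water (median 18.3, n = 6). With chitin it was at 79.6, 73.0 and 73.5 FPKM, above every other library of the series, and with flg22 at 13.3, 23.4 and 19.8 FPKM, among the water values. The chitin change was 1.81 (SE 0.33, adjusted p = 9.43e-05, limma) and the flg22 change was −0.17 (95% interval −0.84 to 0.51, adjusted p = 0.716). The MAMPs differed by 1.98 (SE 0.38, adjusted p = 0.00232), a call that none of its 14 alternatives removed. The chitin replicates agreed closely for this copy (75.3 ± 3.68 FPKM, SD, n = 3).

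CYP83B1 Bra034941 (A08, 5058097 to 5059748, plus strand) did not pass the test at 30 min with either MAMP. Its levels there were 854, 601, 1083, 1457 and 609 FPKM in water, 1097, 502 and 593 FPKM with chitin and 778, 902 and 1046 FPKM with flg22. The groups overlapped, with changes of −0.33 for chitin (95% interval −1.20 to 0.54, adjusted p = 0.49, limma) and 0.05 for flg22 (−0.82 to 0.92, adjusted p = 0.913). The sign of the chitin value turned under median-ratio scaling, to 0.18.

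At 180 min Bra034941 rose with both MAMPs. Water libraries held 468 to 1781 FPKM (median 1238, n = 6), chitin libraries 4474, 3388 and 2793 FPKM and flg22 libraries 2307, 2720 and 2503 FPKM. All treated libraries exceeded all water libraries, and the gene was the 11th to 20th most abundant of all genes in the chitin libraries and the 21st to 25th in the flg22 libraries. Changes were 1.79 with chitin (SE 0.40, adjusted p = 0.000879, limma) and 1.31 with flg22 (SE 0.40, adjusted p = 0.0132). Without flg22 replicate 2 the flg22 change was 1.25 with an adjusted p of 0.0535. All 3 chitin values were above the flg22 values, but the difference of 0.48 did not pass the test (95% interval −0.50 to 1.45, adjusted p = 0.549).

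**Figure D2:**
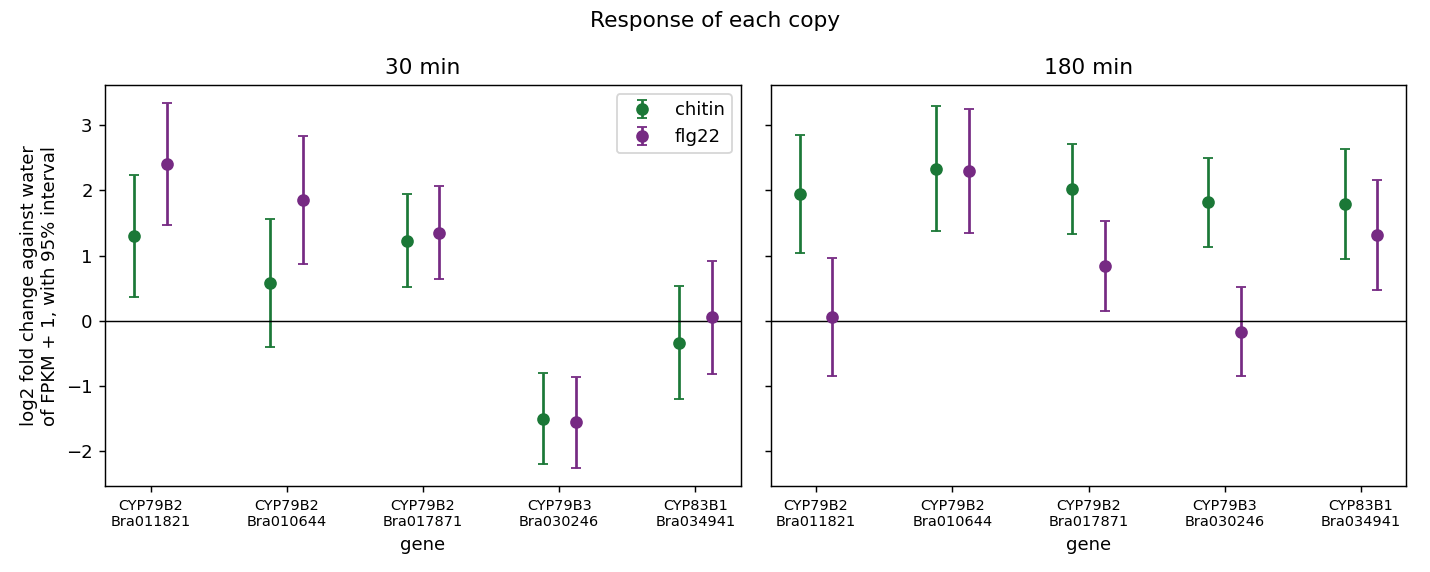
Log2 fold change of FPKM + 1 against water for each of the 5 copies at 30 and at 180 min, with the 95% interval from limma; green is chitin and purple is flg22. Bra030246 was at −1.50 and −1.56 at 30 min while the values of the CYP79B2 copies were 0.58 to 2.40, and at 180 min the 5 chitin values lay between 1.79 and 2.33 while the flg22 values ranged from −0.17 to 2.30.

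The number of copies called is read against the share of all tested genes called the same way. With chitin at 30 min, 2 of the 5 copies were upregulated, against 12.0% of all genes, and 1 was downregulated, against 53.0%. With flg22 at 30 min, 3 were upregulated, against 13.5%, and 1 downregulated, against 54.6%. These shares depended on the scaling between libraries: 2927 genes rose and 12914 fell with chitin at 30 min as deposited, and 4320 rose and 3982 fell after median-ratio scaling. For flg22 at 30 min, 3291 rose and 13313 fell as deposited, and 5123 rose and 5315 fell after scaling. A fall at 30 min was thus common among all genes in the deposited values.

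At 180 min all 5 copies were upregulated with chitin, against 21.3% of all genes, and 3 with flg22 (Bra010644, Bra017871 and Bra034941), against 19.0%. The chitin count stayed at 5 in each of the 9 fits that left out a library. For flg22 the count was 1 without flg22 replicate 2, when only Bra010644 passed. The median change of the copies with chitin was 1.95, against −0.12 over all tested genes, and with flg22 it was 0.84, against 0.01. After median-ratio scaling 6877 genes rose and 6839 fell with chitin at 180 min, compared with 5194 and 8108 as deposited.

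Direct comparison of the MAMPs called none of the 5 copies at 30 min, when 1.39% of all genes were called in either direction by limma. Such a comparison sets treated libraries side by side and takes no account of the separate water controls of each MAMP. Unadjusted, 2 copies passed p under 0.05, Bra011821 (−1.11, adjusted p = 0.292) and Bra010644 (−1.27, adjusted p = 0.257), and for both of these copies all 3 chitin libraries were below all 3 flg22 libraries. At 180 min, chitin exceeded flg22 for 2 copies, Bra011821 and Bra030246, against 4.08% of all genes. Median-ratio scaling turned the balance of that comparison over all genes from 995 higher and 1773 lower to 1543 higher and 1215 lower, and called Bra017871 as well (1.30, adjusted p = 0.0331).

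Between 30 and 180 min in water no copy was called, whereas 11.4% of all genes were called in either direction (limma). Bra011821 went in mean level from 86.8 ± 49.5 FPKM (SD, n = 5) to 169 ± 99.0 FPKM (n = 6), with a change of 0.89 that did not pass the test (adjusted p = 0.143), and was the 1 copy with an unadjusted p under 0.05. It was called when water replicate 2-s15 at 180 min or replicate 3-s17 at 30 min was left out (adjusted p = 0.0438 and 0.0387); here the number after the dash is that in the title of a water library. The water libraries were uneven for the same copies. Replicate 3-s17 had the highest Bra011821, Bra010644, Bra034941 and BraNHL10 levels of water at 30 min, and replicates 2-s15 and 3-s23 had the lowest Bra011821, Bra010644, Bra034941 and BraNHL10 levels of water at 180 min. The study's separate water controls for chitin and for flg22 are not marked in the labels. Aligned sequence was 4.60 gigabases in 2-s15 and 4.75 in 2-s11, and 4.67 in 3-s23 and 4.09 in 3-s19. At 30 min it was 4.57 in 3-s17 and 4.97 in 3-s21. Ranked beside the study's mapped reads, 2-s15 and 3-s23 would be chitin controls and 3-s17 a flg22 control. At 180 min, 1-s3 and 1-s7 were too close to rank (4.88 and 4.92), and 1-s7 had the highest Bra011821 level. Whether the spread lies between these sets, and its part in the responses, was not tested.

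The responses themselves changed between the times. The chitin response grew from 30 to 180 min for 3 copies, against 30.8% of all genes: Bra030246 by 3.32 (SE 0.47, adjusted p = 2.45e-05, limma), Bra034941 by 2.12 (adjusted p = 0.00608) and Bra010644 by 1.75 (adjusted p = 0.0356). The Bra010644 call was lost in 13 of 27 alternatives, and without chitin replicate 1 at 180 min the value was 1.05 (adjusted p = 0.165). For Bra011821 the chitin response did not pass a test of change (0.65, adjusted p = 0.404). The flg22 response fell for 1 copy, Bra011821, by 2.34 on the log2 scale (adjusted p = 0.00412), against 12.0% of all genes. It rose for 1 copy, Bra030246, by 1.39 (adjusted p = 0.018), against 37.1%, and this call was lost without flg22 replicate 2 at 180 min (1.23, adjusted p = 0.0560) and without flg22 replicate 1 at 30 min (0.97, adjusted p = 0.0887). The median of all tested genes was itself 0.25 for the chitin change and 0.40 for the flg22 change. After median-ratio scaling these medians were −0.03 and −0.01, and the calls for Bra010644 with chitin (1.46, adjusted p = 0.0722) and Bra030246 with flg22 (0.94, adjusted p = 0.108) were lost.

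Ratios taken within a library do not depend on its scaling. The level of CYP83B1 Bra034941 over CYP79B2 Bra011821 was 8.53 to 14.3 in water at 30 min (median 11.4, n = 5), 3.24 to 4.32 with chitin (n = 3) and 1.99 to 2.39 with flg22 (n = 3). At 180 min it was 5.60 to 8.76 in water (median 7.23, n = 6), 4.95 to 7.49 with chitin and 12.8 to 20.4 with flg22. The ratio was thus below the water range in both early treatments, overlapped with it in the late chitin libraries and was above it in the late flg22 libraries.

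Within the CYP79B2 copies, Bra010644 made up 8.35% to 13.2% of the summed FPKM with flg22 at 180 min, compared with 1.30% to 3.51% in water and 1.38% to 8.13% with chitin. Its share at 30 min was at most 3.71% in every condition. The share of Bra017871 at 30 min was 2.96% to 8.07% in water, 1.91% to 10.1% with chitin and 2.03% to 4.55% with flg22. At 180 min it was 1.27% to 3.06% in water, 1.40% to 3.40% with chitin and 2.35% to 3.40% with flg22. These ranges overlap at each time.

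**Figure D3:**
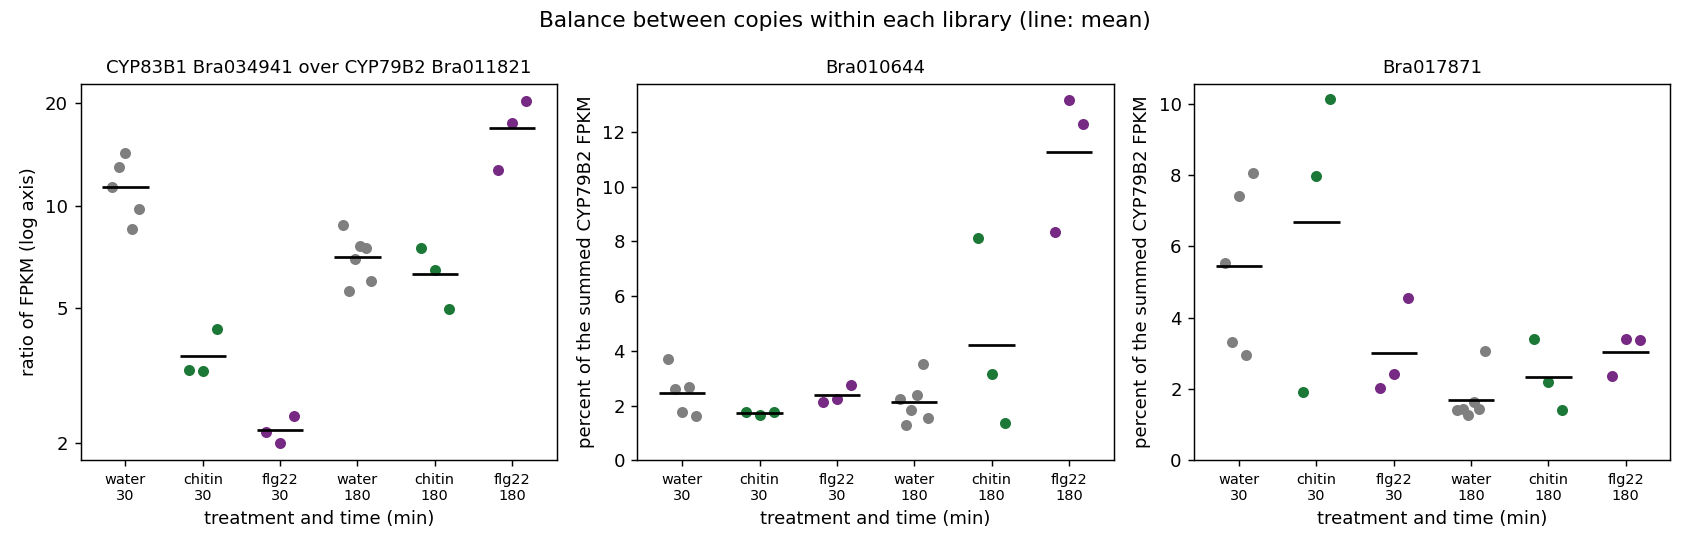
Balance between copies within each library by treatment and time in min: the ratio of CYP83B1 Bra034941 to CYP79B2 Bra011821 FPKM on a log axis, and the shares in percent of Bra010644 and Bra017871 in the summed FPKM of the 3 CYP79B2 copies. Each point is 1 library and each line a mean; the ratio was 1.99 to 2.39 with flg22 at 30 min and 12.8 to 20.4 at 180 min, and the Bra010644 share was 8.35% to 13.2% with flg22 at 180 min.

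Whether copies responded unequally was tested on the log2 ratio of FPKM + 1 of each of the 10 pairs of copies, within libraries, in each of the 4 comparisons with water (exact two-sided permutation test over libraries). Of these 40 tests, 21 gave the smallest p their group sizes allow, 0.0357 at 30 min and 0.0238 at 180 min, and these were the pairs whose treated and water ranges did not overlap. The smallest adjusted p over the 40 was 0.068 (Benjamini-Hochberg), and with so high a floor the design left little room for a smaller one. The separated pairs numbered 6 of 10 for chitin at 30 min, against 35.7% of all pairs of tested genes, 8 of 10 for flg22 at 30 min, against 42.7%, and 7 of 10 for flg22 at 180 min, against 45.1%. For chitin at 180 min there were 0 of 10, against 50.5%, with an unadjusted p of at least 0.333 in the exact test. Separated ratios were thus common among all genes, and the 10 pairs share 5 genes.

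The widest separation at 30 min was between Bra011821 and Bra030246, the main CYP79B2 copy and the CYP79B3 copy. Their ratio of FPKM + 1 was 2.41 to 6.49 in water, 14.8 to 67.1 with chitin and 41.4 to 87.6 with flg22, a difference of 2.80 and 3.96 on the log2 scale. At 180 min the same ratio was 4.27 to 9.90 in water, 7.13 to 7.59 with chitin and 5.96 to 12.7 with flg22, so that the groups overlapped. Among the CYP79B2 copies, Bra011821 over Bra010644 was 23.2 to 60.6 in water at 180 min and 6.13 to 10.2 with flg22, a difference of −2.23. With chitin it was 10.7 to 62.8, overlapping with water.

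Besides CYP79B3 Bra030246, the study names 2 genes of the pathway by identifier, and both rose with chitin at 180 min, when 21.3% of all genes did. APK2 Bra017872, an adenosine phosphosulfate kinase that supplies activated sulfate for the last step of the glucosinolate core, went from 16.1 ± 7.48 FPKM in water (SD, n = 6) to 89.2 ± 28.9 FPKM with chitin (n = 3) and was at 22.1 ± 5.80 FPKM with flg22 (n = 3). Changes were 2.48 (adjusted p = 6.77e-06, limma) and 0.54 (adjusted p = 0.226). UGT74B1 Bra024634, the glucosyltransferase of the core pathway, went from 73.6 ± 37.1 to 281 ± 55.9 FPKM with chitin and 152 ± 18.7 FPKM with flg22 (2.07, adjusted p = 3.8e-05, and 1.20, adjusted p = 0.00786). At 30 min neither passed with either MAMP, with changes from −0.67 to −0.16. The study picked both genes, and Bra030246, on these samples for their late chitin response, so their values here are no independent evidence of its direction. For Bra024634 the study also reports quantitative RT-PCR on separate biological samples, with a rise under chitin only. Here its flg22 change passed as well, but against all water libraries of that time. The lowest of these, 2-s15 and 3-s23 at 31.7 and 37.9 FPKM, would be chitin controls by their aligned sequence. The change against flg22 controls alone was not tested.

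APK2 Bra017872 is also the gene next to CYP79B2 Bra017871 on A03, at a distance of 13758 bases, and in Arabidopsis APK2 likewise neighbors CYP79B2. The other CYP79B2 copies also had a gene beside them that was upregulated with chitin at 180 min. In each case it was the farther neighbor. Of all genes 21.3% were upregulated then, but this share is per gene, and each copy has a gene on either side. The nearer neighbors, Bra011820, Bra017870 and Bra010643, had chitin changes of −0.98, −0.82 and −0.64 at that time, of which only the Bra011820 change passed (adjusted p = 7.49e-06, limma). Bra011822, 10848 bases from Bra011821 on A01, was at 7.96 ± 4.48 FPKM in water (SD, n = 5), 51.9 ± 28.3 with chitin and 94.7 ± 35.4 with flg22 at 30 min. At 180 min it was at 9.92 ± 6.80 (n = 6), 237 ± 54.1 and 43.1 ± 8.79 FPKM. Its changes of 2.54 and 3.47 at 30 min and of 4.68 and 2.26 at 180 min all passed (largest adjusted p = 0.000608, limma).

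Bra010645, 4647 bases from Bra010644 on A08, was at most at 1.35 FPKM in every water library. It rose at 180 min to 15.8 ± 8.64 FPKM with chitin and 6.35 ± 0.946 FPKM with flg22 (SD, n = 3; changes 3.50 and 2.48, adjusted p = 1.67e-08 and 2.94e-06, limma). At 30 min its changes were 0.05 and 0.67 (adjusted p = 0.894 and 0.0546). On the other side of Bra010644, Bra010643 fell with flg22 at 180 min by 2.27 on the log2 scale (adjusted p = 0.000163), so that the neighbors of this copy did not move together. Of the remaining neighbors, Bra011820, Bra017870 and Bra030245 had changes from −1.57 to −0.14 in the comparisons with water, and Bra030247, Bra034940 and Bra034942 were too low to be tested. No neighbor overlapped one of the 5 copies, and the files give no name for these genes.

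**Figure D4:**
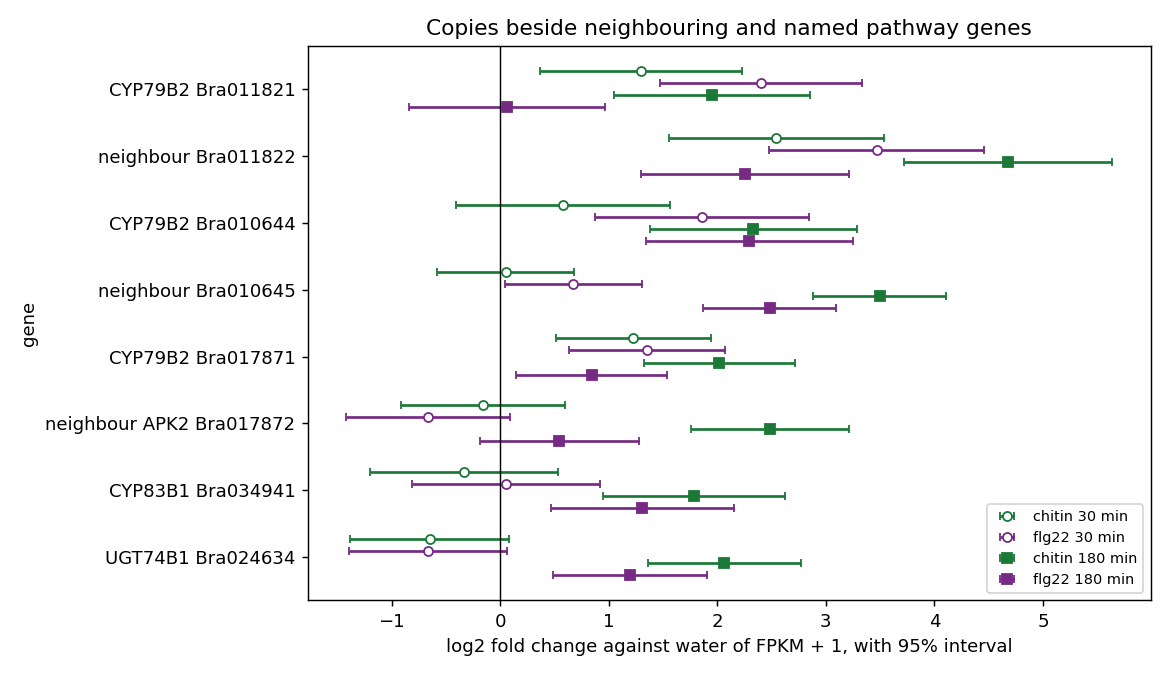
Log2 fold change of FPKM + 1 against water, with the 95% interval from limma, for the CYP79B2 and CYP83B1 copies, the farther of the neighbors of each CYP79B2 copy, and UGT74B1. Open circles are 30 min, squares 180 min, green chitin and purple flg22. The nearer neighbors, Bra011820, Bra017870 and Bra010643, are not shown and had changes from −2.27 to −0.54 at 180 min. Bra011822 was at 2.26 to 4.68 in the 4 comparisons, and APK2 Bra017872 was at 2.48 with chitin at 180 min and at −0.66 to 0.54 in the other comparisons.

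The pattern of each copy was compared with 22627 genes of a mean FPKM of at least 1, as the root mean square difference of centered log2(FPKM + 1) over the 23 libraries, which include replicates and share the treatments. The nearest gene to CYP83B1 Bra034941 was Bra009915, at a distance of 0.21. Nearest genes to the others were farther away: Bra009640 for Bra010644 (0.42), Bra008132 for Bra011821 (0.42), Bra004129 for Bra017871 (0.44) and Bra027306 for Bra030246 (0.46). The copies were farther from each other than from these genes. Each nearest gene was picked as the closest of 22627, so that this order says little about the copies. The closest pair of copies was Bra010644 and CYP83B1 Bra034941, at 0.71, with 225 genes closer to Bra010644, whereas Bra010644 and the CYP79B2 copies Bra011821 and Bra017871 were at 0.89 and 1.06. For the other pairs, 979 to 18760 genes were closer to a copy than its partner was, counted for a single copy of each pair. CYP79B3 Bra030246 was at 1.39 or more from each CYP79B2 copy and at 0.85 from CYP83B1.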

How the data were processed

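The authors trimmed reads with Trimmomatic 0.36, mapped them with HISAT2 against chromosome build v1.5 of *B. rapa* and ran StringTie 2.0, according to their methods and processing notes. The FPKM values deposited by the authors are scaled to gene length and library total. Their deposited TPM values are rescaled to the same sum in each library. Coverage, also deposited, is the mean signal over the bases of a gene. The authors called DEGs with DESeq2 on counts, which were not used here.

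The 23 libraries were assigned to 6 conditions from their labels. limma (3.58.1, R 4.3.3) with a mean-variance trend was fitted to log2(FPKM + 1) of the 24384 genes that reached an FPKM of 1 in 3 or more libraries, with 1 coefficient per condition and Benjamini-Hochberg adjustment. The model was tested on simulated data. The labels give biological replicate numbers, and p-values measure the spread between these libraries. Duplicate libraries were looked for, and a pair of libraries shared no more than 0.00378% of its values. A value of 0 can be a failed estimate, and 30.1% to 33.2% of genes were at 0 per library.

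Whether the replicate numbers in the labels pair the samples was checked by correlating, over genes, how same-numbered libraries depart from the mean of their condition, with 0.1 as the limit for every pair. Against water at 30 min the correlations ran from 0.31 to 0.47 for chitin and from 0.24 to 0.43 for flg22. Against water at 180 min they ran from 0.15 to 0.51 for chitin, and the limit was missed by flg22 (−0.05 to 0.18). Water libraries that shared a number were averaged, which may mix the controls of both MAMPs. A low value against water therefore cannot show that libraries were unpaired. The limit was also missed by chitin against flg22 at both times.

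The 5 copies, the other named genes and the tests were chosen with earlier results of these data known. Named beside the copies are the pathway genes and the marker that the study identifies, the gene on either side of each copy and the nearest gene in pattern. The RefSeq gene table used here holds 1 of the 41020 identifiers and none of the 5 copies, so that sequences and the rest of the pathway are not analysed here. Alternatives were a pseudocount of 0.1, no filter, TPM, median-ratio scaling, the study's thresholds (2-fold and an unadjusted p under 0.05), a fit of the compared conditions alone, a replicate block, averaging or choosing water libraries by replicate number, and each library left out.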

Additional observations from a re-analysis of the deposited data

Results flagged for a closer look

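A difference of response between 30 and 180 min, tested as an interaction in limma, was called for 4 copies. Such calls were common among all 24384 tested genes. The chitin response grew for 30.8% of them and fell for 3613 genes. The flg22 response grew for 37.1% and fell for 12.0%. The chitin response of CYP79B3 Bra030246 was 3.32 higher on the log2 scale at 180 min than at 30 min, going from −1.50 to 1.81, with the chitin libraries below all water libraries at 30 min and above all of them at 180 min. The chitin response of CYP83B1 Bra034941 was 2.12 higher at 180 min and that of CYP79B2 Bra010644 was 1.75 higher, a call lost in 13 of 27 alternatives and reduced to 1.05 (adjusted p = 0.165, limma) without chitin replicate 1 at 180 min. The flg22 response of CYP79B2 Bra011821 moved the other way, by −2.34, from 2.40 at 30 min to 0.06 at 180 min. The flg22 response of Bra030246 was 1.39 higher at 180 min, a call lost in 4 of 27 alternatives. In none of the 10 groups of water libraries (5 copies at both times) was a single library far enough from the others for Dixon's test. The nearest was Bra011821 in water replicate 3-s17 at 30 min, with a gap of 0.679 of the range against a critical value of 0.710.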

How the results depend on the processing

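The number of copies called moved as follows. With the lowest value over the choices of 1 water library per replicate number, the count for the change of the chitin response went from 3 to 1, for the change of the flg22 response from 2 to 1 and for flg22 at 180 min from 3 to 1, and with the highest value the count for time in water went from 0 to 2. Median-ratio scaling gave 1 for the change of the flg22 response, and the study's thresholds gave 2 for chitin against flg22 at 30 min. Leaving out single libraries gave 1 to 3 for the change of the flg22 response, 1 to 3 for chitin against flg22 at 180 min, 1 to 3 for flg22 at 180 min and 0 to 1 for time in water. The cause was not tested.

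The replicate block removed 1 call, that of Bra017871 for flg22 at 180 min (adjusted p = 0.0545, limma), and changed no other call of the copies. Under the block the time change of Bra030246 in water was 0.0204 in place of −0.0192. A treated library correlated best with the water libraries of its own number in 3 of 3 cases for each MAMP at 30 min, and in 2 of 3 for chitin and 1 of 3 for flg22 at 180 min.

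Values that changed sign had not passed the test. With the lowest choice of water libraries, these were Bra010644 (−0.39 for the change of the flg22 response and −0.54 for time in water), Bra011821 (−0.44 for the change of the chitin response, −0.62 for flg22 at 180 min and −0.19 for time in water) and Bra034941 (−0.29 for flg22 at 30 min and −0.75 for time in water). With the highest choice they were Bra030246 (0.16 for flg22 at 180 min and 0.45 for time in water) and Bra034941 (0.0209 for chitin at 30 min). Averaged water libraries gave 0.0421 for Bra030246 over time in water. Median-ratio scaling gave −0.0437 for Bra010644 (change of the flg22 response) and 0.18 for Bra034941 (chitin at 30 min), and TPM gave −0.0176 for Bra010644 (chitin against flg22 at 180 min).

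Leaving out 1 library turned 7 such values. Their ranges were −0.67 to 0.65 for Bra010644 in chitin against flg22 at 180 min, −0.18 to 0.29 for Bra011821 with flg22 at 180 min, −0.44 to 0.24 for Bra017871 and −0.37 to 0.37 for Bra030246 in chitin against flg22 at 30 min, −0.33 to 0.0539 for Bra030246 with flg22 at 180 min, −0.16 to 0.0930 for Bra030246 over time in water and −0.0785 to 0.24 for Bra034941 with flg22 at 30 min. Of all alternative values for single copies, 796 kept direction and call, 36 lost a call, 17 gained one and 36 changed sign. The coverage per base in water was as low as 4.18 for Bra010644 and 4.81 for Bra017871.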
